A study of Saccharomyces cerevisiae with 2 samples.

Results

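Wide divergent intergenic regions are the stretches between 2 genes that are transcribed away from each other where the array carries 4 or more probes. They were taken from the array's own annotation: a region is the set of nuclear probes labelled as divergent promoter that bear the same pair of gene names. By this rule 282 of the 1362 nuclear divergent regions were members, and they held 1414 of the 3378 nuclear divergent probes (41.9%). The choice used the number of probes and no measured value, though it was made with earlier results of these data known. Of the members, 123 had 4 probes, 73 had 5, 55 had 6, 21 had 7 and 10 had 8. Another 246 divergent regions had 3 probes and lay just outside the rule. Their median region mean was 0.83 and 0.86 on replicates 1 and 2 (log2 ratio, defined below), beside 0.87 and 0.86 in the members with 4 probes.

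A divergent intergenic region carries the promoters of both of its genes, and one set of factor binding sites can serve both directions. In budding yeast the DNA just upstream of a transcription start is typically poor in nucleosomes and is flanked by well-placed nucleosomes on either side. A wide region leaves room for upstream activating and repressing sequences, for nucleosomes between the promoters, and in some cases for a tRNA gene or a small gene.

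Cells of Saccharomyces cerevisiae had been stopped in G1 with alpha factor, the mating pheromone, and their chromatin was either cut with micrococcal nuclease, which digests the linker DNA between nucleosomes, or sheared by sound. Nucleosomal DNA carried the dye Cy5 and genomic DNA the dye Cy3 on each of 2 tiling arrays, replicate 1 and replicate 2, which form 1 group with the same dye orientation. The labels name no strain, genotype, culture or second condition, so the spread between the arrays may be technical, and the comparisons are all between DNA regions within an array. Every value below is the log2 ratio of Cy5 over Cy3 minus the median of the array over its 41775 probes, so a value above 0 means more signal from the DNA labelled nucleosomal than at a typical probe.

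Before any correction a typical spot read 32997 and 33242 units of Cy5 on replicates 1 and 2, and 17885 and 16928 units of Cy3, while the median local background was 57 to 80.5. The arrays lay on 1 slide and gave nearly the same values: over the member probes their difference had an SD of 0.072. Mitochondrial DNA, which has no histones, had median ratios of 4.50 and 4.54 (222 probes), far on the side labelled nucleosomal. Most member regions lay on the same side, as described below. Whether the channels are as the labels say was not tested. The sign is given as labelled throughout and is not read as an amount of nucleosomes. Exchanging the channels would turn every sign and leave every size as it is.

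After 9 probes with uneven spots or dim Cy3 were left out, 1405 probes in the 282 regions remained, and 277 regions kept 4 or more. The probes were 45 to 60 bases long and lay a median of 232 bp apart. The labelled stretch was 589 to 1941 bp long, with a median of 1022 bp. In 260 regions the nearest coding probes on both sides belonged to the 2 genes in the name, and there the coding edges, each placed midway between 2 probes, lay 780 to 3295 bp apart (median 1325 bp). In 231 of them the outermost member probes were next to coding probes. In the other 29, upstream probes that the array assigns to 1 gene only lay beyond the labelled stretch, so that the outermost member probe was not the one nearest the gene. Cy5 was saturated on both arrays at 51 member probes (3.63%), which makes their ratios lower bounds unless Cy3 was saturated too, as it was at 4.

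Most wide divergent regions had more signal from DNA labelled nucleosomal than the array median. The mean of a region's probes had a median of 0.78 over the 282 regions (0.78 and 0.80 on replicates 1 and 2), with quartiles of 0.31 and 1.35 and a range from -0.99 to 2.83. The mean lay above 0 in 245 regions (86.9%) and below 0 in 30 (10.6%) by limma's moderated test (adjusted p under the threshold of 0.05), and 7 did not pass. Among all 5211 intergenic regions tested in the same fit, 71.9% were above 0 and 23.9% below, 95.8% in all. The share above 0 was 74.3% in narrow divergent regions, with 1 to 3 probes, and 81.1% in long tandem promoters, which have 4 or more probes upstream of 1 gene. A mean over more probes varies less, and whether that accounts for the larger share was not tested. The 2 arrays differed so little that nearly every region passed, so the sizes carry more than the counts. With the background corrected by normexp, 52.1% of the member regions were called above 0 and 0.709% below. No share over all intergenic regions is given for normexp, so these shares have no background beside them. With 2 arrays an exact sign-flip test cannot give a p below 0.5.

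Single probes were far more mixed than region means. Of the 1405 probes, 925 (65.8%) were above 0 and 417 (29.7%) below by the same test, where the whole array had 46.9% above and 47% below, or 94% in either direction. The median probe ratio was 0.59 and 0.58 on the 2 arrays. It was 0.65 and 0.66 in narrow divergent regions, 0.41 and 0.41 in long tandem promoters and -0.11 and -0.11 in coding DNA. A ratio over 1 was found at 39.4% of member probes and 7.09% of coding probes, and 31.9% of member probes lay below 0. The medians of wide and narrow divergent regions differed by -0.07 ± 0.0098 (SD, n = 2 arrays), those of wide divergent and long tandem regions by 0.17 ± 0.0046, and those of wide divergent and coding DNA by 0.69 ± 0.0045. These differences were larger than the spread between the arrays, but 2 arrays allow no test below an exact p of 0.5.

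The regions were also set against the coding DNA of their own 2 genes. In the 260 regions with coding probes of both genes, the region mean exceeded the mean of the 2 genes by a median of 0.83 (0.82 and 0.83 on replicates 1 and 2), with quartiles of 0.38 and 1.31. By limma 228 (87.7%) were higher than their genes, 21 (8.08%) lower and 11 did not pass, where 73.5% of all 4896 regions tested were higher and 21.8% lower, 95.3% in all. The 2 flanking genes themselves had a median of -0.05. Across the 260 regions the level of the coding DNA and of the region were weakly related (Pearson r = 0.21, Spearman rho = 0.19, as a description over regions that share the 2 arrays).

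The highest region mean lay between YDR524C-B and SNA2 (chromosome 4, 1489762 to 1490551 in the array's coordinates, with no genome build given in the sources used here), at 2.81 and 2.85 on replicates 1 and 2. Its 4 probes read 2.33 and 2.43, then 4.71 and 4.84, then 4.34 and 4.27, and last -0.15 and -0.16. The first 3 probes were high and the last, on the SNA2 side, was slightly below the array median. KTI12/HAP4 (chromosome 11, 230000 to 231320) was next at 2.70 and 2.71. HAP4 encodes the regulated subunit of an activator of respiratory genes, and the 5 probes upstream of it lay between 1.78 and 4.19, with the peak of 4.18 and 4.19 at the fourth. The upstream DNA of HAP4 runs beyond the labelled stretch, and the coding edges lie 2324 bp apart.

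GID8/GAT2 followed at 2.53 and 2.53; GID8 encodes a subunit of a ubiquitin ligase that removes gluconeogenic enzymes and GAT2 a zinc finger protein of the GATA family. Its first probe, beside GID8, read 0.11 and 0.08, and the other 4 lay between 2.69 and 3.81. FTR1/LSM5, between a high-affinity iron permease gene and a gene for a subunit of an RNA-binding ring, had a mean of 2.53 and 2.51, and its 4 probes lay between 1.47 and 3.51. The region between YGL007C-A and YGL006W-A had 2.46 and 2.50 and ran from 4.78 and 5.01 at its first probe to 0.57 and 0.59 at its last. PIR5/HSP150, between 2 genes for cell wall proteins, had 2.39 and 2.46. Adjusted p-values of these 6 means lay between 9.5e-08 and 1.3e-07 (limma, n = 2 arrays). The means of 110 regions exceeded 1, and no mean lay below -1.

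The lowest mean belonged to YNR071C/HXT17 (chromosome 14, 771584 to 772540), upstream of a hexose transporter gene, at -0.99 and -0.98. All 4 probes were below 0 on both arrays, from -1.51 to -0.38, and the region lay 0.67 below its flanking genes. GEX1/VBA3, between genes for a glutathione exchanger and a vacuolar amino acid permease, had -0.85 and -0.94, but this value rests on 1 of its 4 probes, since 3 were left out, and that one was saturated in Cy5 on both arrays. Its mean was -0.255 with no probe filter and -0.202 with loess, so its place in this order is not firm. TIR2/AUS1, between a cell wall mannoprotein gene and the gene of a sterol importer, had -0.78 and -0.80. The member probe nearest AUS1, still 1155 bp from its coding edge, read 0.83 and 0.94 while the other 3 lay between -2.06 and -0.88. COG6/YNL040W, beside the gene of a Golgi tethering subunit, had -0.57 and -0.56. With the normexp correction TIR2/AUS1 turned to 0.965 and COG6/YNL040W to 0.428, and 3 more of the 6 lowest means no longer passed: YNR071C/HXT17 (-0.375, limma adjusted p = 0.14), CAL4/GPI14 (-0.366, 0.147) and UBR2/SNF7 (-0.524, 0.0754). CAL4/GPI14 had -0.55 and -0.50 and UBR2/SNF7 had -0.50 and -0.49. GPI14 acts in the synthesis of membrane anchors and SNF7 in sorting to the vacuole. Adjusted p-values of the 6 lowest means lay between 6.1e-07 and 9.7e-06 (limma, n = 2 arrays). CAL4/GPI14 was at the level of its own genes: the difference was 0.06 and did not pass. Of the 277 regions with 4 or more kept probes, 3 had every kept probe below 0 and 46 had every probe above 0.

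Pooled over the member probes whose distance from a coding edge was placed, the median ratio was higher at 200 to 800 bp than within 200 bp or beyond 800 bp. Not all members are in this profile, and the first bin drew on 229 regions. The bins hold different sets of regions, since only wide regions reach the far bins. By distance from the nearest coding edge, the median ratio was 0.44 and 0.42 within 200 bp (405 probes), 0.80 and 0.82 at 200 to 400 bp (329 probes), 0.70 and 0.70 at 400 to 600 bp (294 probes) and 0.72 and 0.71 at 600 to 800 bp (147 probes). It fell to 0.32 and 0.32 at 800 to 1000 bp (70 probes). On the coding side of the same edges it was 0.03 and 0.03 within 200 bp and lay between -0.26 and -0.08 from there to 1600 bp. The step between the first and second bin exceeded the difference between the arrays, but single probes spread widely, with quartiles of -0.10 and 2.04 at 200 to 400 bp. In bins of 100 bp the highest median was 0.87 and 0.92 at 600 to 700 bp (80 probes), just above 0.86 and 0.90 at 200 to 300 bp (118 probes), so the bin size decides where the peak is found.

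**Figure D1:**
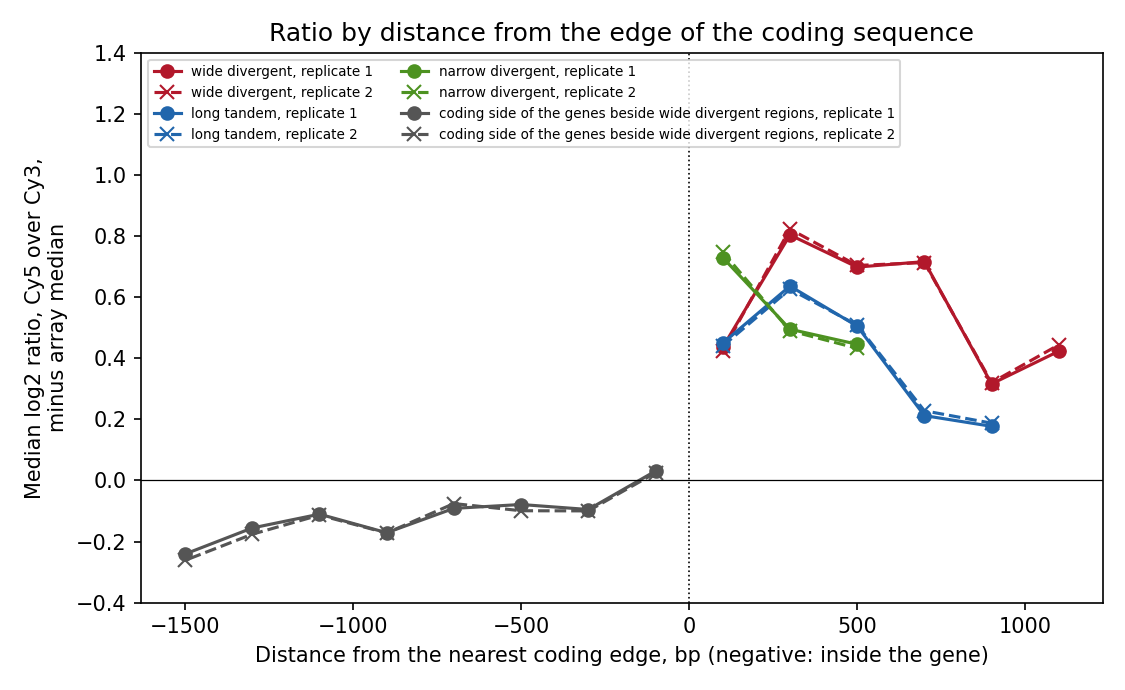
Median log2 ratio (array median set to 0) in 200 bp bins of distance from the nearest coding edge, for wide divergent, narrow divergent and long tandem regions and, at negative distances, the coding side of the genes beside wide divergent regions. Circles are replicate 1 and crosses replicate 2, and bins with under 20 probes are not drawn. In these bins wide divergent regions are highest, at 0.80 and 0.82, from 200 to 400 bp, and the coding side stays near or below 0.

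Long tandem promoters followed a similar course, at lower levels from 200 to 800 bp but not within 200 bp. Their medians were 0.45 and 0.44 within 200 bp, 0.64 and 0.63 at 200 to 400 bp, 0.51 and 0.51 at 400 to 600 bp, and 0.21 and 0.23 at 600 to 800 bp, where wide divergent regions were at 0.72 and 0.71. In narrow divergent regions the first 200 bp held the highest median, 0.73 and 0.75 (1413 probes), and 200 to 400 bp had 0.50 and 0.49. Wide and narrow divergent regions thus had opposite orders of these 2 bins on both arrays. Whether that follows from the shorter distance between the genes was not tested.

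Counted by rank, the outermost probe on either side had a median of 0.44 and 0.43 (563 probes), the next one in 0.75 and 0.78 (558 probes), the third 0.69 and 0.67 (243 probes) and the fourth 0.09 and 0.10 (41 probes, from 31 regions). The median of the outermost probes minus that of the 284 probes at rank 3 or more from both edges, which leaves out rank 2, was -0.16 ± 0.0047 (SD, n = 2 arrays). It was -0.0672 in regions with 5 or more probes and -0.0832 without dim and saturated probes, so its size depends on the probes used. In the members with 4 kept probes the medians from the lower to the higher coordinate were 0.63 and 0.61, 0.81 and 0.82, 1.05 and 1.08, and 0.27 and 0.26 (119 regions). In those with 6 (54 regions) all 6 medians lay between 0.31 and 0.65. The 10 regions with 8 probes had 1.90 and 1.82 at the first probe and -0.07 and -0.12 at the fifth, and 10 regions are few.

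**Figure D2:**
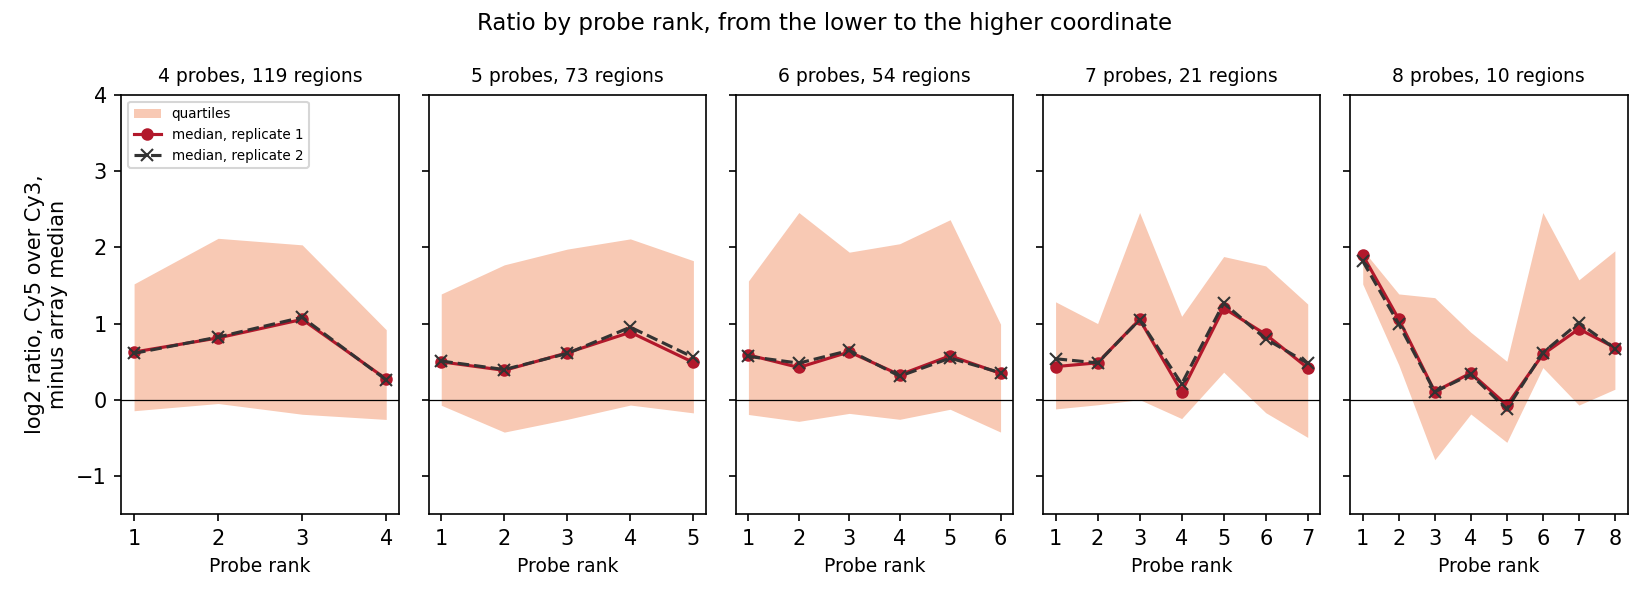
Median log2 ratio at each probe rank, counted from the lower coordinate, in wide divergent regions with 4, 5, 6, 7 and 8 kept probes. Circles are replicate 1, crosses replicate 2 and the band spans the quartiles of the mean of the arrays. The medians of the 4-probe regions rise to 1.05 and 1.08 at the third probe, and in these regions the bands are wider than the changes between ranks.

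Individual regions did not share this course. The mean of the 2 outermost probes was compared with the mean of the inner ones in the 277 regions with 4 or more kept probes. The outermost probes were lower in 160 regions (57.8%) and higher in 110 (39.7%) by limma, and 7 did not pass. Over all 780 intergenic regions with enough probes, of every class, 56.8% were lower and 40.1% higher, 96.9% in all, so the members' shares are near this background. With normexp 22.0% of the members were called higher and 35.7% lower, and no share over all regions is given for normexp. The median difference was -0.30 (-0.32 and -0.28 on replicates 1 and 2), with quartiles of -1.17 and 0.62. It was under -1 in 80 regions and over 1 in 42. The median differed in sign with the width of the region: it was -0.60 and -0.62 where the coding edges lay up to 1000 bp apart, -0.36 and -0.37 at 1000 to 1500 bp, -0.14 and -0.17 at 1500 to 2000 bp, and 0.39 and 0.42 over 2000 bp. In this widest group the outermost probes were higher in 22 of 37 regions and lower in 15. Regions not bordered by coding probes on both sides numbered 51, and both coding edges were placed in 29 of them. These 29 were wider, with a median of 2461.5 bp between coding edges against 1233 bp. In some, such as NRG1/HEM13, the outermost member probes lay over 1000 bp from both genes. The median edge difference was -0.03 and -0.05 in the 50 of these 51 regions that were tested. It was -0.36 and -0.35 in the regions bordered by coding probes. Width and borders were not separated. The highest probe of a region was an outermost one in 103 regions (37.2%), where outermost probes take 41.6% of the places.

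**Figure D3:**
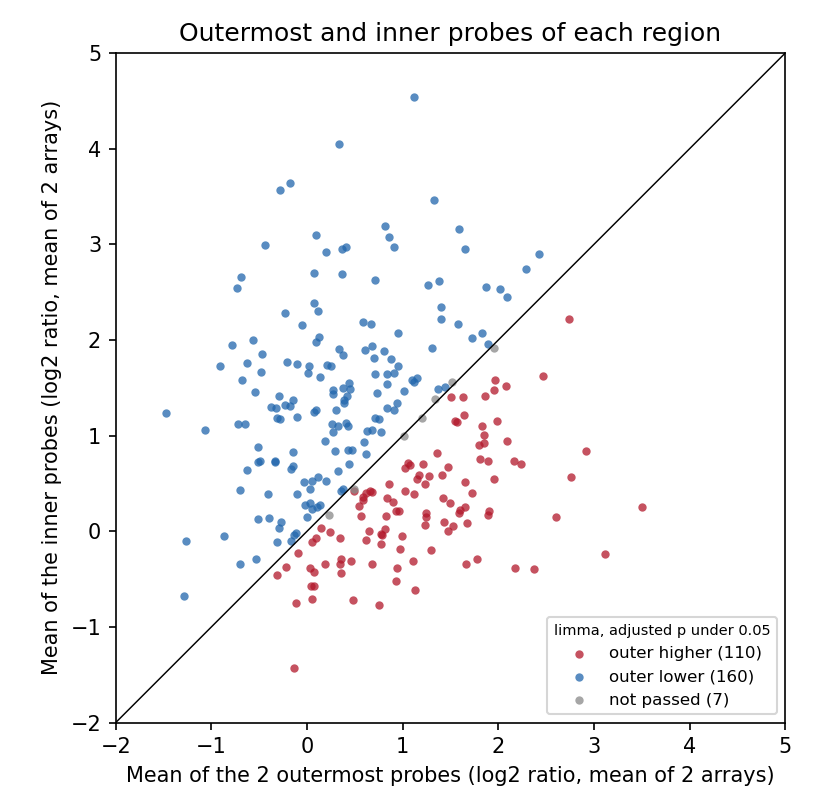
Mean log2 ratio of the 2 outermost probes (x axis) against the mean of the inner probes (y axis) of each of 277 wide divergent regions, as means of 2 arrays. Points above the line are regions with higher inner probes. Blue marks the 160 regions with lower outermost probes, red the 110 with higher ones and grey the 7 that did not pass.

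Of the regions with the largest excess at the edges, the 4 described here were high at both ends. DCD1/CRP1 (chromosome 8, 388774 to 390115) lies between the gene of dCMP deaminase and the gene of a protein that binds cruciform DNA. Its outermost probes read 3.05 and 3.18 beside DCD1 and 3.05 and 3.19 beside CRP1, and the 3 between them lay from -0.83 to 0.69. The difference was 3.32 and 3.40 on the 2 arrays, and a tRNA gene lies between the 2 genes in the gene order of assembly R64. UTP6/RPS18A (chromosome 4, 1358920 to 1359737), between a gene for ribosome assembly and a gene of the small ribosomal subunit, had 3.51 and 3.49 at one end, 3.50 and 3.51 at the other, and -0.10 to 0.60 between. Here the difference was 3.26 and 3.25.

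GDH1/YOR376W-A, upstream of the glutamate dehydrogenase that assimilates ammonium, read 3.57 and 3.58 at its first probe and 1.16 and 1.19 at its last, and the 5 probes between lay from -0.86 to -0.15. The nearest coding probe on the far side is not of YOR376W-A, so no distance to that gene is given. YEL025C/RIP1, upstream of a subunit of respiratory complex III, had 2.24 and 2.30 beside YEL025C, 2.07 and 2.09 beside RIP1 and -0.68 to -0.07 between, where 1 probe was saturated in Cy5. These 4 differences passed on the positive side.

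The 5 regions with the largest deficit at the edges had their highest probes inside. ACS1/FLC2 (chromosome 1, 45092 to 45825), beside the acetyl-CoA synthetase gene used on non-fermentable carbon, read -0.94 and -0.96, then 3.30 and 3.25, then 3.89 and 3.83, and last 0.38 and 0.40. The difference of its outermost from its inner probes was -3.87 and -3.82. PMP2/GTT3, beside the gene of a small regulator of the plasma membrane proton pump, was alike: its inner probes reached 3.13 to 4.21 and its ends lay at -0.29 to -0.03. RPL15B/NCW1, beside a gene of the large ribosomal subunit, reached 4.46 and 5.19 at the third probe, so that the arrays differed there more than at most named probes.

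YDR524C-B/SNA2, described above, was the fourth, with a difference of -3.44 and -3.42. ANB1/CYC1 (chromosome 10, 525234 to 526018) was the fifth, with -3.40 and -3.46. ANB1 is the form of translation factor eIF5A made at low oxygen and CYC1 the cytochrome c gene made in air, so the pair is regulated in opposite ways. The probe next to ANB1 read 0.29 and 0.17, the following ones 1.77 and 1.73 and 4.22 and 4.24, and the probe next to CYC1 -1.10 and -1.12.

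The 2 sides of a region were compared in the same way, the side of the lower coordinate against the other. By limma 131 of 277 were higher on the lower-coordinate side (47.3%) and 135 lower (48.7%), where all 780 regions had 45.9% and 49.7%, 95.6% in all. The median difference was -0.02, so neither direction prevailed. In 280 of the 282 regions, all those whose genes were found in the R64 gene order, the lower side is the start of a gene on the minus strand and the higher side the start of a gene on the plus strand. The outermost probes on the 2 sides were hardly related in level (Pearson r = -0.07, Spearman rho = -0.05 over 277 regions, as a description). Both exceeded 1 in 32 regions, 1 of them in 122 and neither in 123.

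Some regions were strongly one-sided. In YPR063C/ROX1 (chromosome 16, 678504 to 679465), upstream of the repressor of hypoxic genes, the 2 probes on the YPR063C side read -1.79 and -1.78 and -0.73 and -0.78. The 3 toward ROX1 read 3.81 and 3.80, 2.77 and 2.74, and 3.17 and 3.10. SWI4/LSM4, upstream of a subunit of the factor that drives G1/S genes, was low on the SWI4 side (0.17 and 0.24, then -0.71 and -0.83) and high on the LSM4 side, at 4.11 and 4.14 for the probe next to the gene. Cy5 was saturated at its second probe. These 2 regions had the largest differences toward the plus-strand gene, -4.21 and -3.65.

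CRH1/HIP1 and AGP1/KCC4 had the largest differences the other way, 3.34 and 3.31. CRH1 encodes a cell wall cross-linking enzyme and HIP1 the histidine permease. Their region fell from 4.57 and 4.53 beside CRH1 to -0.74 and -0.79 at its last probe. AGP1 encodes a broad amino acid permease and KCC4 a kinase of the bud neck. The 3 probes on the AGP1 side lay between 1.82 and 3.64 and the 3 on the KCC4 side between -1.49 and -0.19.

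**Figure D4:**
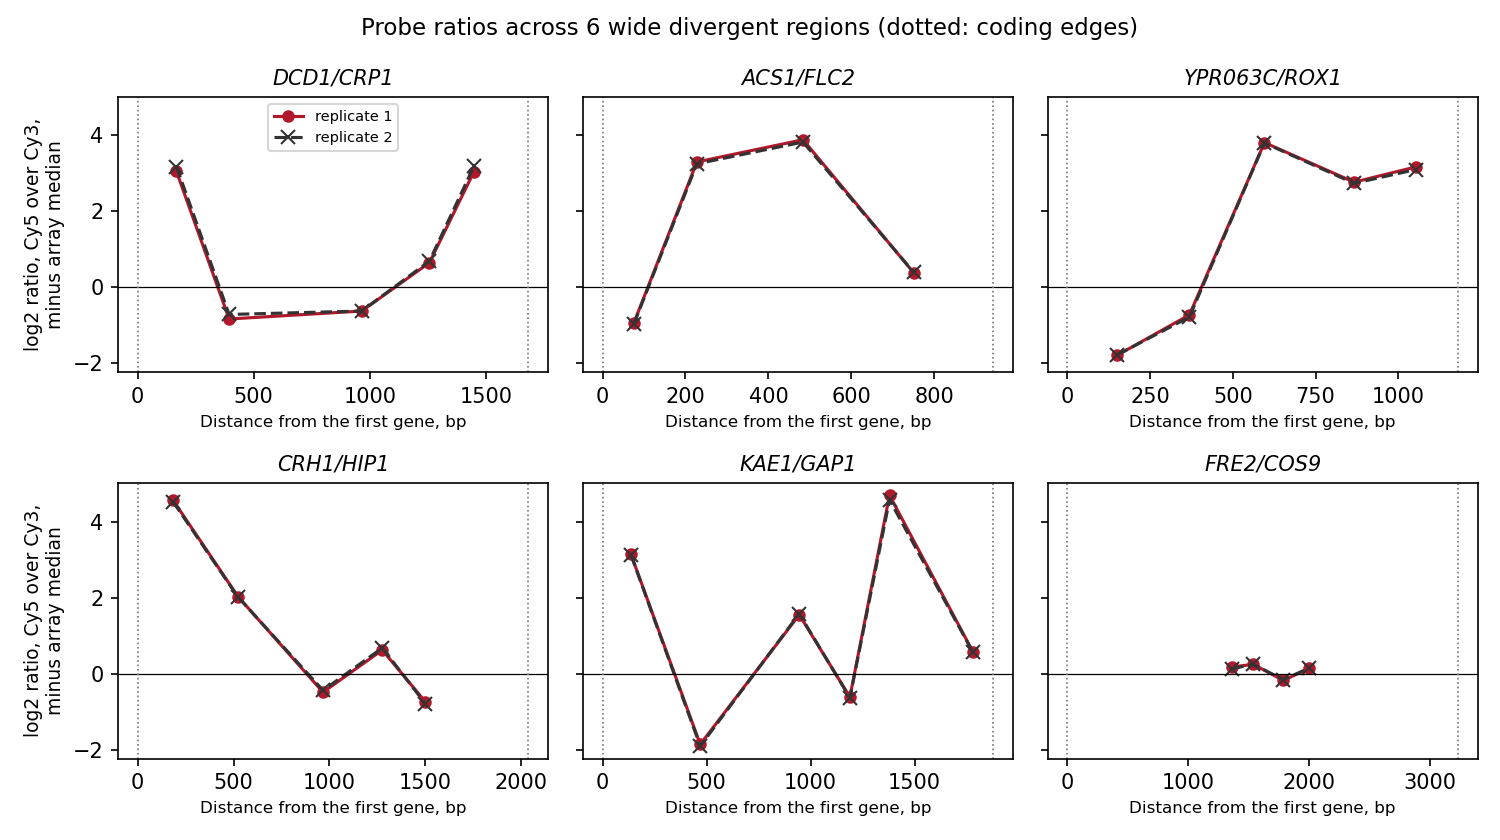
Log2 ratio of each kept probe against its distance from the first gene in the name, in 6 wide divergent regions, with dotted lines at both coding edges. The 6 are the regions with the largest edge excess and deficit, the largest difference in each direction between the sides, and the widest and narrowest range. Replicate 1 (circles) and replicate 2 (crosses) nearly coincide, and the shapes differ from region to region.

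Neighbouring probes inside a region often differed strongly. Across 1123 pairs of neighbouring kept probes the median size of the step was 1.23, and 57.8% of steps exceeded 1. In long tandem promoters the median step was 1.02 (1259 pairs), inside genes 0.60 (24586 pairs) and over all 41216 pairs 0.73. By limma 97.5% of the members' steps passed, where 93.6% of all steps did. The value of a probe said little about the next: r between neighbours was 0.11 (1123 pairs, median distance 232 bp), and 0.06 and 0.04 between probes 2 and 3 places apart. These are descriptions across probes that share the 2 arrays.

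The difference between the highest and lowest probe of a region had a median of 3.09, with quartiles of 2.24 and 3.91 and a range from 0.41 to 6.52. The region means took up 24.7% of the sum of squares of the member probes. This share was not corrected for the number of regions, 282 over 1405 probes, and unrelated probes would give most of it as well. In 198 of 277 regions at least 1 probe exceeded 1 and at least 1 lay below 0. Stretches of neighbouring probes over 1 numbered 1 in 149 regions, 2 in 85, 3 in 9 and none in 34.

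The widest range belonged to KAE1/GAP1 (chromosome 11, 512875 to 514578), upstream of the general amino acid permease gene, where a tRNA gene lies between. Its 6 probes alternated: 3.14 and 3.13, -1.86 and -1.91, 1.55 and 1.58, -0.62 and -0.64, 4.70 and 4.58, and 0.58 and 0.56. TDH2/MET3, between a gene of glycolysis and a gene of sulfate assimilation, had 1 high probe (4.58 and 4.58, the second) among 5 that lay between -1.74 and 0.89. MRM2/RPL1B likewise had 1 high probe, at 4.93 and 4.77, next to 1 at -1.34 and -1.47. RPL8B/FPS1, between a ribosomal protein gene and the glycerol channel gene, held the highest probe of these 4 regions, 5.30 and 5.23, on the RPL8B side.

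The narrowest ranges were those of FRE2/COS9, HPF1/ZPS1, IRC22/MNN1 and PAU13/DFP4. FRE2 encodes a ferric reductase, and all 4 probes of its region lay between -0.18 and 0.24. HPF1/ZPS1, beside a cell wall glycoprotein gene, was flat at a higher level, from 0.88 to 1.48. In IRC22/MNN1, upstream of a mannosyltransferase gene, the mean was -0.02 and -0.07, the only one of the 57 named regions that did not pass against 0. In the first 3 of these the coding edges lay 2760 to 3236 bp apart, and member probes did not reach the genes.

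Of the regions with the most probes, 4 are described here, and they differed in where their high stretches lay. RPI1/RHO3 (chromosome 9, 138113 to 139686), upstream of a GTPase gene of polarised growth, had 8 probes and a mean of 2.33 and 2.36. Probes 2 to 4 lay between 3.60 and 4.48, the fifth fell to -0.63 and -0.62, and probes 6 and 7 rose again to between 2.90 and 3.88. The outermost probes were at 0.30 and 0.37 and at -0.20 and -0.09, the last of them saturated in Cy5. PBI1/ATP15, upstream of a subunit of the mitochondrial ATP synthase, was by contrast between -0.91 and 1.32 over 7 probes, with 1 of them over 1, and highest at the last, next to ATP15, at 3.74 and 3.73.

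YER010C/TIR1, upstream of a cold-induced cell wall gene, had its highest probe seventh of 8, at 3.49 and 3.32. RAD2/TNA1, between an endonuclease gene of nucleotide excision repair and the nicotinic acid permease gene, was high beside RAD2 (2.59 and 2.57) and low beside TNA1 (-1.38 and -1.43).

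Of 87 loci chosen for their known regulation, 26 border a wide divergent region, in 24 regions. All 24 means lay above 0 by limma, where 86.9% of wide divergent regions and 71.9% of all intergenic regions did. The gene lists were chosen with earlier results of these data known, so this count is a description and no independent support. With the median of the probes in place of the mean, MPF1/MEP2 (-0.0312) and CIN5/DFG16 (-0.00266) lay below 0. The means ranged from 0.30 for CIN5/DFG16 to 2.52 for FTR1/LSM5. Among the genes of the G1 block and of mating, CLN2/BBP1, upstream of a G1 cyclin gene, had a mean of 0.98 and 0.96. Its probe second from CLN2 read 3.71 and 3.69 and the third -0.72 and -0.72. PEP1/FUS3, upstream of the kinase gene of the pheromone pathway, had 1.43 and 1.45 over 3 kept probes, rising from 0.19 and 0.23 beside PEP1 to 3.14 and 3.10 toward FUS3. UBC4/TEC1, upstream of a filamentation activator gene, had 1.52 and 1.54, and the probes next to both genes were high, at 2.63 and 2.67 and at 3.22 and 3.15.

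For nutrient uptake, CAN1/NPR2, upstream of the arginine permease gene, had 2.39 and 2.40, with 3.24 and 3.24 and 3.71 and 3.68 at its inner probes. MPF1/MEP2, upstream of the ammonium permease and sensor gene, had 0.68 and 0.68. The level came from its first 2 probes, 2.04 and 1.90 and 4.30 and 4.52, and the other 6 lay between -0.90 and 0.51. ENA1/RSM10, upstream of a sodium pump gene, had 1.17 and 1.15, with Cy5 saturated at its last probe, beside RSM10. ATG40/PDR5, upstream of a drug efflux pump gene, had 1.23 and 1.24. NIT1/SUC2, upstream of the glucose-repressed invertase gene, was among the lower ones at 0.35 and 0.35. There only the third of 5 probes exceeded 1, at 1.58 and 1.58.

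Of the listed loci of repression and development, 4 are given here, with coding edges 2003 to 3248 bp apart. NRG1/HEM13, between the gene of a glucose-dependent repressor and an oxygen-regulated gene of haem synthesis, had 0.39 and 0.44. Its highest probe read 1.10 and 1.11, and Cy5 was saturated at the second. IME1/RPL43B, beside the master regulator gene of meiosis, had 0.56 and 0.51, and SOK2/SPO20, beside a repressor gene of filamentous growth, 0.94 and 0.96. In SOK2/SPO20 the 2 probes nearest SOK2 read -0.26 and -0.26 and -1.73 and -1.74, and the next 2 2.27 and 2.36 and 2.94 and 2.97. CIN5/DFG16, beside a gene of the Yap family, had 0.30 and 0.29, with 1 probe above 1.

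The listed loci also included stress, histone and highly expressed genes. YKL063C/MSN4, upstream of a general stress activator gene, had 1.99 and 1.96, with 4.82 and 4.75 at its second probe and -0.79 and -0.80 at the third. CCW12/HOG1, between a major cell wall gene and the osmotic stress kinase gene, had 2.15 and 2.10, and its 5 probes all exceeded 1. SSA1/EFB1, between an Hsp70 gene and a translation elongation gene, had 1.42 and 1.43, whereas HSP82/YAR1, beside an Hsp90 gene, had 0.56 and 0.57. Both hold a probe saturated in Cy5 on both arrays, the one next to EFB1 and the one next to HSP82. HTB1/HTA1, the shared promoter of a histone H2B and an H2A gene, had 1.87 and 1.88, and its 4 probes lay between 0.99 and 2.53. CYC3/CDC19, upstream of the pyruvate kinase gene, had 1.54 and 1.52, with 8 probes between 0.61 and 2.67. TKL2/TEF2, upstream of an elongation factor gene, had 1.03 and 1.05.

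Regions were also grouped by lists of what their neighbouring genes do, and a region can be in more than one list. The counts above 0 stand beside 86.9% over all members and 71.9% over all intergenic regions, and most lists lay near the former. Transcription factor genes bordered 24 regions, 23 of them above 0 and 1, MIG1/HOP2, below, with a median of 1.36 and 1.36 on replicates 1 and 2 and the highest at KTI12/HAP4. All 5 regions beside pheromone and mating genes (median 1.33 and 1.37) and all 8 beside cell cycle genes (median 1.14 and 1.15) were above 0. Beside transporter genes 29 of 31 were above and 2 below, with a median of 1.03 and 1.01, from -0.99 at YNR071C/HXT17 to 2.52 at FTR1/LSM5. Ribosomal protein genes bordered 27 regions, of which 24 were above and 3 below, with a median of 0.89 and 0.92, from -0.22 at RPL40B/MLP1 to 2.33 at RKI1/RPS7A.

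For the other lists the medians were 0.98 and 0.99 beside histone and chromatin genes (6 of 7 above), 0.88 and 0.87 for glycolysis and fermentation (6 of 7), 0.87 and 0.90 for translation and ribosome assembly (6 of 6) and 0.87 and 0.85 for the cell wall (13 of 16). They were 0.77 and 0.79 for meiosis and sporulation (9 of 10), 0.66 and 0.65 for amino acid and nucleotide synthesis (15 of 16) and 0.44 and 0.43 for heat shock and stress (5 of 6). The 143 regions beside genes of no list had a median of 0.60 and 0.64, with 117 above, 19 below and 7 that did not pass. The lists overlap within the region means of the rest, their differences were not tested, and the median over all members was 0.78.

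**Figure D5:**
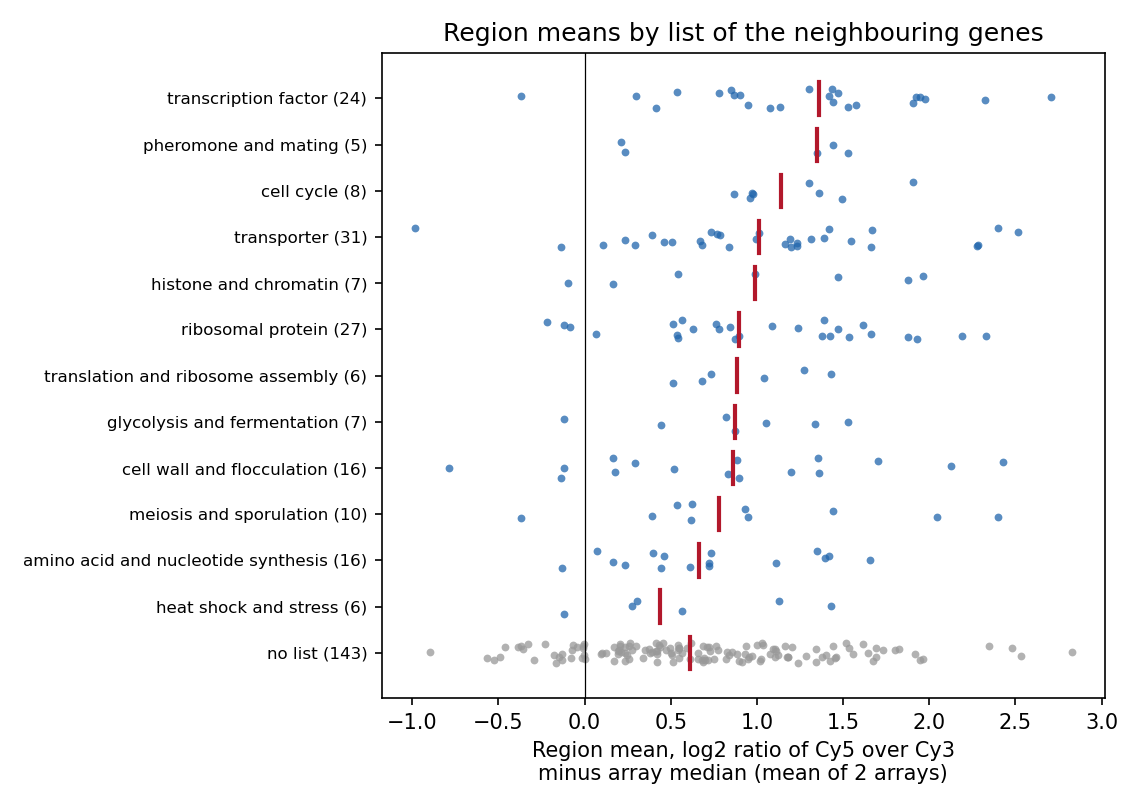
Region means (log2 ratio, mean of 2 arrays) of wide divergent regions by list of the neighbouring genes, with the number of regions in brackets. Each point is a region and the red bar the median of the list, and a region can appear in several lists. Medians run from 0.44 and 0.43 on the 2 arrays for heat shock and stress to 1.36 and 1.36 for transcription factors, and every list overlaps the grey points of regions in no list.

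Regions with and without a tRNA gene between the 2 genes differed in their profiles. In the gene order of R64, 40 regions have a tRNA gene between the named genes. Their means had a median of 0.46 and 0.47, with quartiles of 0.23 and 0.97, where the 235 regions with neither a tRNA nor a small RNA gene had 0.85 and 0.85, with quartiles of 0.39 and 1.41. The outermost probes were higher than the inner ones in 25 of 39 regions with a tRNA gene and lower in 14, with a median difference of 0.60 and 0.57. In regions with neither they were higher in 82 of 231 and lower in 143, with a median of -0.38 and -0.39. Regions with a tRNA gene were also wider, with a median of 1641 bp between coding edges against 1224 bp. Among regions up to 2000 bp wide the median differences between outermost and inner probes were 0.39 and 0.47 with a tRNA gene (27 regions) and -0.48 and -0.49 with neither (187 regions). In this range too the regions with a tRNA gene were wider, with medians of 1591.5 bp against 1145 bp, so width was not held fixed. The 7 regions with a snoRNA or snRNA gene between had a median mean of 1.10 and 1.11. The 42 regions with an R64 protein-coding gene between differed little from the 238 without: the medians of the mean were 0.73 and 0.74 against 0.79 and 0.81, and those of the edge difference -0.29 and -0.26 against -0.33 and -0.34. The difference between these groups was not tested beyond the 2 arrays, and the position of the tRNA gene among the probes was not used.

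The median region mean was lower in the groups of wider regions. The median was 0.98 and 0.99 where the coding edges lay up to 1000 bp apart (49 regions), 0.87 and 0.88 at 1000 to 1500 bp (125), 0.76 and 0.80 at 1500 to 2000 bp (49) and 0.42 and 0.44 over 2000 bp (37). Across all 260 regions the relation was weak (Pearson r = -0.12, Spearman rho = -0.08, as a description). The labelled stretch was at most 1941 bp long, so in the widest group it did not span the whole distance. In some of these regions the member probes did not reach the genes. The median mean was 0.85 and 0.86 in regions bordered by coding probes on both sides and 0.54 and 0.54 in the others. The 21 regions within 20000 bp of the outermost probe of a chromosome had a median of 0.35 and 0.35 (16 above 0, 5 below). The other 261 had 0.84 and 0.85 (229 above, 25 below). Above 0 were 86.9% of all members and 71.9% of all intergenic regions. YNR071C/HXT17, FRE2/COS9 and PAU13/DFP4 were among the 21. Chromosome medians ran from 0.25 and 0.24 on chromosome 6 (6 regions) to 1.48 and 1.48 on chromosome 1 (4 regions).

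At the borders, the step from the last coding probe into the region was upward more often than downward. At the lower-coordinate border 152 of 243 steps rose into the region and 77 fell by limma, with 14 that did not pass and a median step of 0.52 and 0.54. At the higher-coordinate border 161 of 239 rose and 69 fell, with 9 that did not pass and a median of 0.61 and 0.55. Of 230 regions with both borders measured, 104 rose at both, 100 at 1 and 26 at neither. The background for any step between neighbouring probes was 47.3% in one direction and 46.3% in the other along the chromosome.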

How the data were processed

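The deposited scanner files hold, per the file headers, spot intensity from Feature Extraction 9.1.3.1 in both dyes, background-corrected and dye-normalized processed intensity, and a log10 ratio. The deposited value table holds log2 ratios that equal log2 of processed Cy5 over processed Cy3 within 5.00e-06, with array medians of -0.13 and -0.13, so they are not centred. The deposited log10 ratio differed from the processed signals by over 0.001 at 76 and 78 probes and was not used.

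From these, log2 of processed Cy5 over Cy3 was taken per probe and each array's median over non-control probes was subtracted. Of 41775 probes, 174 with uneven spots and 147 with dim Cy3 were left out. Probe values, region means and differences were tested over both arrays with limma 3.58.1 (R 4.3.3) on all regions of all classes at once, with Benjamini-Hochberg adjustment at 0.05. The residual has 1 degree of freedom, and in every test limma's shared prior outweighs it, with prior degrees of freedom of 3.12 for probes, 3.37 for regions, 4.06 against flanking genes, 4.43 for steps, 19.4 for edges and 669 for sides. For edges and sides only sizes and calls are given. The p-values therefore reflect array-to-array spread alone, possibly only technical, and 2 arrays limit the precision. The arrays share a slide, so slide and scan could not be tested as batches. The code was tested on simulated data. Python 3.11.15, numpy 2.4.6, pandas 2.3.3 and matplotlib 3.10.9 were used for the rest.

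Gene names, strands and gene order came from RefSeq's R64 table, which held 562 of 564 named genes and renamed 99. Coordinates are the array's own. The planned motif and base composition search was not run, since no probe sequence was used here. The members and gene lists were chosen with earlier results of these data known. Regions are named by rule: the 6 highest and 6 lowest means, the 6 with the most probes, the 5 largest edge differences each way, the 4 largest side differences, the 4 widest and 4 narrowest ranges, and every region beside a listed locus. Of these, 2 regions are not reported here. Alternatives were normexp (offset 50), loess (span 0.3), the deposited values, other probe filters, regions with 5 or more probes, the median of a region's probes, 100 bp bins and each array alone.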

Additional observations from a re-analysis of the deposited data

How the results depend on the processing

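No paired analysis was possible because the arrays form 1 group. With one array left out, the median region mean was 0.776 to 0.796, the excess over flanking genes 0.818 to 0.831, the edge difference -0.325 to -0.282, wide minus coding 0.691 to 0.698, wide minus narrow -0.0777 to -0.0638, wide minus long tandem 0.169 to 0.175 and outer minus inner -0.161 to -0.154. Normexp moved the counts of calls: 52.1% of regions were above 0 and 0.709% below, 0.385% were below their genes, 22.0% had higher and 35.7% lower edges, and 61.7% differed between sides. These are shares of member regions, with no share over all regions given for normexp. The same medians, in the order above without outer minus inner, were then 0.926, 0.975, -0.211, 1.05, -0.0859 and 0.138. Loess gave 0.553, 0.665, -0.273, 0.527, -0.0359 and 0.193, and -0.107 for outer minus inner. The uncentred deposited values gave a median region mean of 0.657, no probe filter 0.803 (wide minus long tandem 0.178), and the median of a region's probes 0.669, with 0.764 over the genes and -0.20 at the edges. Regions with 5 or more probes gave 0.765, 0.814, -0.242, 0.703 over coding, 0.241 over long tandem and -0.0672 for outer minus inner. Outer (rank 1) minus inner (rank 3 or more) was -0.0832 without dim and saturated probes and -0.135 by distance. In regions bordered by coding probes, an alternative chosen after seeing the data, it was -0.20, wide minus narrow -0.0597 and wide minus long tandem 0.133. In 100 bp bins the highest median was 0.895, at 600 to 700 bp in place of 200 to 400 bp.

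Of 71 results for named regions, 21 no longer passed and 2 turned under normexp: TIR2/AUS1 (0.965) and COG6/YNL040W (0.428). With the median of the probes GDH1/YOR376W-A (-0.296), TDH2/MET3 (-0.189), MPF1/MEP2 (-0.0312) and CIN5/DFG16 (-0.00266) turned, as did FRE2/COS9 under loess (-0.0571) and in the deposited values (-0.0346). The causes were not tested. Saturation limits 51 member probes.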
